A study of Mus musculus with 23 samples.

Results

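The miR-30 family of microRNAs was followed across 6 mouse lymphocyte populations in 23 small RNA libraries. The family was taken as 10 named mature microRNAs, from mmu-miR-30a-5p to mmu-miR-30e-3p, the 5p and 3p strands of miR-30a, miR-30b, miR-30c, miR-30d and miR-30e, out of 1256 entries in the deposited count tables. The members were chosen by name. All 10 members passed the filter on low counts and were among the 384 microRNAs tested.

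The study asks how microRNAs act in group 2 innate lymphoid cells (ILC2) in allergic inflammation, with T helper 2 (Th2) cells beside them. Cultured ILC2 (n = 4) were grown for 10 days with IL-33, TSLP and IL-7 at 10 ng/ml. IL-33 ILC2 (n = 4) were taken from lung after 500 ng of IL-33 was given into the airway over 3 days, and lung ILC2 (n = 4) from the lungs of untreated mice. All of the ILC2 came from lungs of wild-type mice. Their sort took cells with CD45, Thy1, CD25 and ST2 and without CD4 or other lineage markers. Cultured Th2 (n = 4) were wild-type CD4+ cells of spleen and lymph nodes, selected on beads and grown for 5 days with anti-CD3, anti-CD28, IL-4 at 500 U/ml and anti-IFNg at 10 µg/ml. OVA-lung Th2 (n = 3) were CD45+ CD11c- CD11b- CD4+ CD3+ cells carrying the 4get reporter, sorted from lungs of Il4tm1LKy mice that were sensitized over 3 weeks with 50 µg of ovalbumin in alum and challenged with 50 µg over 3 days. CD4 T cells (n = 4) were CD62L-high CD44-low CD25- CD69- CD4+ cells of spleen and lymph nodes of untreated wild-type mice. OVA-lung Th2 and CD4 T cells therefore also differ in genotype, tissue and sort. The labels do not say whether replicates came from separate animals, so p-values measure the spread between these libraries, which may be technical.

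A microRNA is cut from a hairpin whose 5′ and 3′ arms can each give a mature strand, named 5p and 3p. Bases 2 to 8 of the strand, the seed, pair with target messages and largely set which ones are repressed. The 5p strands of the miR-30 family share their seed, and the family is known in many tissues, among them as a brake on messages of the epithelial to mesenchymal transition. In human cells miR-30 was shown to repress PRDM1, the gene of the lymphocyte factor BLIMP-1, and miR-30a to repress the autophagy gene BECN1. The 3p strand miR-30c-2-3p is known to limit XBP1, a factor of the unfolded protein response.

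RefSeq mature sequences were found for 6 of the 10 members. They are shown 5′ to 3′ with the seed in capitals because they show which members share a seed and how few bases separate some of them.
miR-30a-5p: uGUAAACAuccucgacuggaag
miR-30c-5p: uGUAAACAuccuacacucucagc
miR-30e-5p: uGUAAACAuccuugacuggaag
miR-30a-3p: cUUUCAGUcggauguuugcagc
miR-30e-3p: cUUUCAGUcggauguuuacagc
miR-30c-2-3p: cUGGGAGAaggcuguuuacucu
The 5p strands carry the seed GUAAACA, miR-30a-3p and miR-30e-3p carry UUUCAGU, and miR-30c-2-3p carries UGGGAGA. Counting from 1 at the 5′ end, miR-30e-5p differs from miR-30a-5p by C13U alone, and miR-30e-3p differs from miR-30a-3p by G18A alone. Reads of such pairs can be split in counting. Of the values above 0 over all 10 members, 36 of 191 were fractional (18.8%), against 9.98% over all entries. They were not confined to these pairs: lung ILC2 library 2 had 11378.5 counts of miR-30c-5p and 2439.5 of miR-30b-5p.

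The hairpins lie in clusters on the build GRCm38.p6. Mir30a (chr1:23272269-23272339, plus strand) overlaps no other annotated gene, and Mir30c-2 (chr1:23291701-23291784, plus strand) starts 19432 bases away in an exon of the long noncoding RNA Gm27028. Mir30e (chr4:120772606-120772697, minus strand) and Mir30c-1 (chr4:120769534-120769622, minus strand) start 3072 bases apart in an intron of Nfyc, which encodes a subunit of the transcription factor NF-Y and lies on the same strand. Since miR-30c-5p is encoded in both clusters, its count does not say which hairpin it came from.

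The libraries were uneven. The smallest held 84918 counts and the largest 28371920 (median 832220), and miR-21a-5p, an abundant microRNA of activated lymphocytes, held between 1.69% and 82.23% of the counts. Per the labels, the replicate number is also the number of the deposited count table, so each group has 1 library in each of the 4 count tables, and OVA-lung Th2 has none with the number 4. Below, set 1 means the libraries with replicate number 1, and so on, and library n of a group is the one in set n. Levels are given as CPM, counts per 1000000 counts of the library. Set 1 stood apart for the family, which held 0.305% to 0.901% of the counts in its 6 libraries, against 0.614% to 5.24% in the other 17. The leukocyte marker miR-142a-5p was above 0 in all 23 libraries, at 1074 CPM or more. The 2 strands used as T cell markers, miR-150-5p and miR-181a-5p, held 0.0159% to 1.18% of the counts in the ILC2 groups, against 0.0134% to 0.158% in cultured Th2, 0.452% to 5.73% in OVA-lung Th2 and 1.39% to 14.6% in CD4 T cells. Cultured Th2 are therefore not set apart from ILC2 by these markers.

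In 4 libraries miR-30b-5p and miR-30c-5p were at 0 counts. These were cultured ILC2 library 1, cultured Th2 library 2, and CD4 T cells libraries 3 and 4, which is 1 library in each count table. A count of 0 there allows up to 1.39 to 6.75 CPM (3 counts of the library total, counting error only). In the other 19 libraries miR-30c-5p ran from 42.9 to 11017 CPM and miR-30b-5p from 5.89 to 2546 CPM. The 5.89 CPM is 0.5 counts, in OVA-lung Th2 library 3, where 3 counts are 35.3 CPM. The relatives were present in the same 4 libraries, with miR-30d-5p between 777 and 24754 CPM. Of all 1256 entries only 1 other, the leukocyte microRNA miR-142a-3p, was at 0 in exactly these 4 libraries and above 0 in the other 19, where it ran from 228 to 83253 CPM. The opposite strand of its hairpin, miR-142a-5p, had between 11703 and 56506 CPM in the 4 libraries.

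The mature miR-30c-5p and miR-142a-3p (chr11:87756903-87756925, plus strand) are shown because their longest shared run of bases, in capitals, is UCCUAC.
miR-30c-5p: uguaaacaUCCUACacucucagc
miR-142a-3p: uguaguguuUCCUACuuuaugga
The run is at bases 9 to 14 of miR-30c-5p and bases 10 to 15 of miR-142a-3p. The other 5 members with a sequence do not hold it. miR-30b-5p, at 0 in the same libraries, is among the 4 members without a sequence here. Whether it holds the run was therefore not looked at. It was looked for after the zeros were seen, on the mature strand alone. Of the 1009 entries with a sequence, 4 hold it (0.396%). The other two are miR-155-3p, with 7 counts in 1 of the 4 libraries and 1733 counts in 11 of the other 19, and miR-493-3p, with 0 counts in the 4 and 33 counts in 2 of the other 19. Why these entries are at 0 was not tested. Every comparison with CD4 T cells or a cultured group that rests on miR-30b-5p or miR-30c-5p therefore includes libraries at 0.

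**Figure D1:**
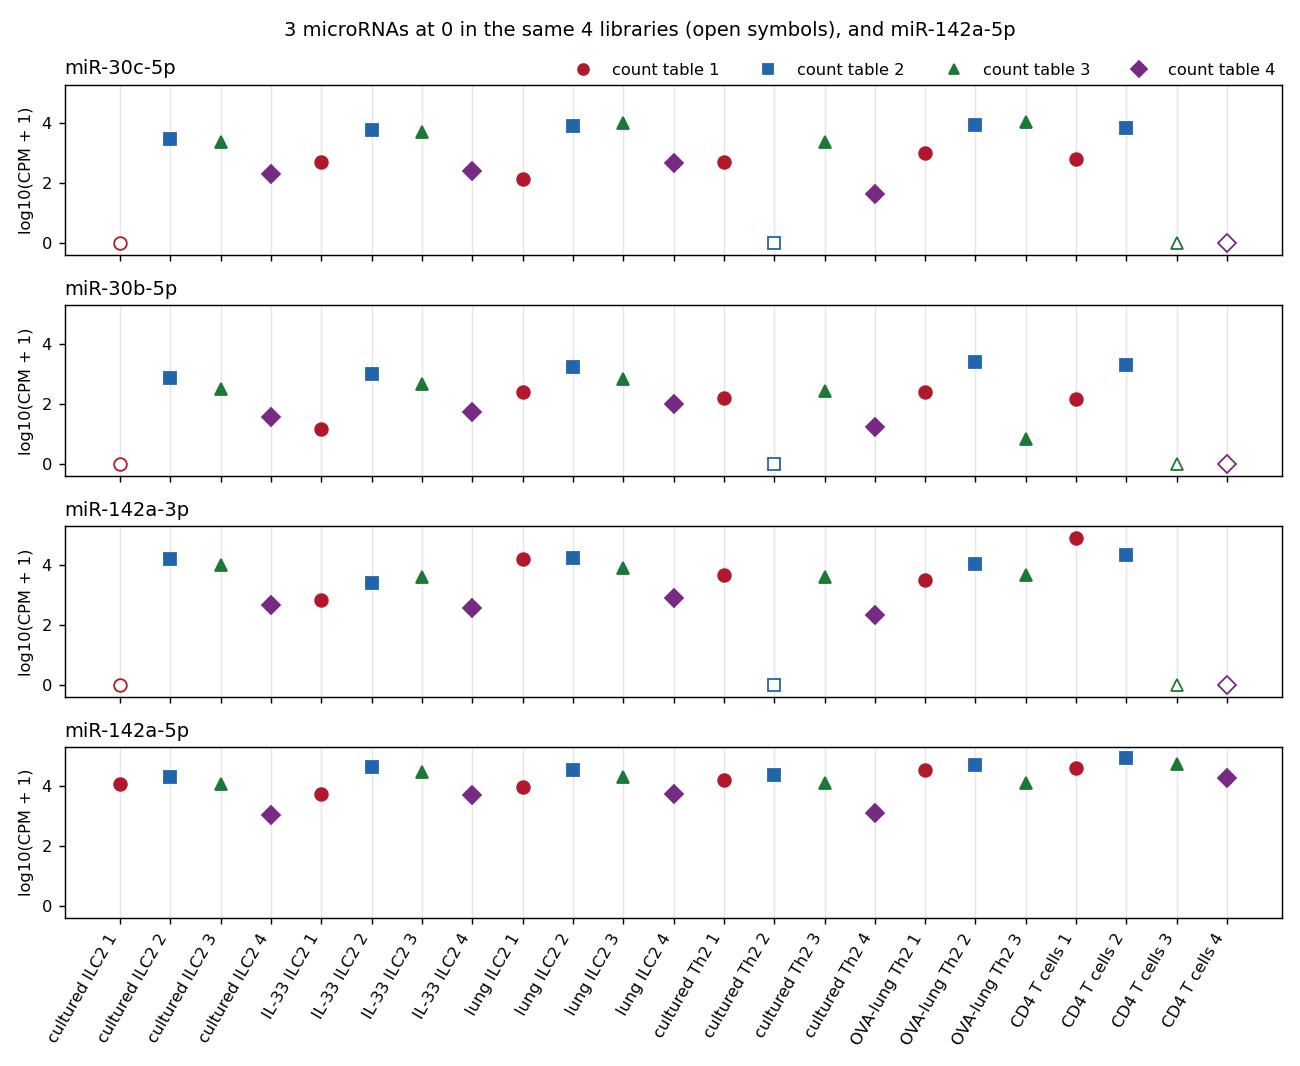
Levels of miR-30c-5p, miR-30b-5p, miR-142a-3p and miR-142a-5p in each of the 23 libraries, on a log10(CPM + 1) scale, with open symbols for 0 counts and the symbol's shape for the count table. The first 3 are at 0 in the same 4 libraries, while miR-142a-5p is at 11703 to 56506 CPM in them.

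Over all 23 libraries mmu-miR-30d-5p was the most abundant member, at a mean of 10901 CPM and rank 20 among all entries. It was followed by mmu-miR-30e-5p at 6627 CPM (rank 28), mmu-miR-30c-5p at 3001 CPM (rank 42), miR-30e-3p at 2576 CPM (rank 49), mmu-miR-30a-5p at 727 CPM (rank 83) and miR-30b-5p at 478 CPM (rank 98). The other 3p strands were lower, with means of 252 CPM for miR-30a-3p, 172 CPM for miR-30b-3p, 46.1 CPM for miR-30d-3p and 6.77 CPM for miR-30c-2-3p. Above 0 in all 23 libraries were miR-30d-5p, miR-30e-5p and miR-30e-3p. miR-30c-2-3p was above 0 in 10.

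miR-30d-5p, from a hairpin that gives almost only its 5p strand here, had 777, 10080, 5999 and 9211 CPM in cultured ILC2 and 1289, 31581, 13554 and 19843 CPM in IL-33 ILC2, in the order of sets 1 to 4. It had 1318, 23071, 19410 and 32535 CPM in lung ILC2. In T cells it had 1065, 5814, 2858 and 3160 CPM in cultured Th2, 1337, 9212 and 7443 CPM in OVA-lung Th2 and 2144, 13577, 10702 and 24754 CPM in CD4 T cells. The lowest library of each group was the one in set 1. Group means ordered lung ILC2 (19084 ± 13071 CPM, SD), IL-33 ILC2 (16567 ± 12631), CD4 T cells (12794 ± 9335), cultured ILC2 (6517 ± 4210), OVA-lung Th2 (5997 ± 4132) and cultured Th2 (3224 ± 1959), and each step between neighbours in that order is smaller than the larger of their SDs.

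miR-30e-5p, which shares all but 1 base with miR-30a-5p, had 544, 8675, 7395 and 2039 CPM in cultured ILC2, 161, 6290, 11805 and 4714 CPM in IL-33 ILC2 and 1726, 11587, 16317 and 7975 CPM in lung ILC2. It had 706, 5411, 4372 and 1079 CPM in cultured Th2, 865, 10509 and 10246 CPM in OVA-lung Th2 and 2122, 11329, 15889 and 10675 CPM in CD4 T cells. All 6 groups overlap in these values. Its mean was highest in CD4 T cells (10004 ± 5744 CPM) and lowest in cultured Th2 (2892 ± 2352 CPM), with lung ILC2 (9401 ± 6152) and OVA-lung Th2 (7207 ± 5494) next to CD4 T cells.

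miR-30c-5p had 0, 3100, 2396 and 198 CPM in cultured ILC2, 527, 6223, 5219 and 252 CPM in IL-33 ILC2 and 138, 8056, 10627 and 470 CPM in lung ILC2. It had 519, 0, 2348 and 42.9 CPM in cultured Th2, 1035, 9083 and 11017 CPM in OVA-lung Th2 and 662, 7102, 0 and 0 CPM in CD4 T cells. Beyond the libraries at 0, all 5 libraries of set 4 were at 470 CPM or lower. miR-30b-5p was at 0 in the same libraries, with its highest values in OVA-lung Th2 library 2 (2546 CPM) and CD4 T cells library 2 (2087 CPM). The 2 strands did not go together everywhere: in OVA-lung Th2 library 3, the highest of all for miR-30c-5p, miR-30b-5p was at 5.89 CPM, and in lung ILC2 library 1 miR-30b-5p (262 CPM) was above miR-30c-5p (138 CPM).

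miR-30a-5p, the strand that differs from miR-30e-5p at 1 base, stood high in ILC2 of the lung. It had 29.2, 454, 313 and 1177 CPM in cultured ILC2, 39.7, 1149, 1142 and 2440 CPM in IL-33 ILC2 and 168, 3121, 1599 and 2123 CPM in lung ILC2. It had 7.33, 37.6, 542 and 57.5 CPM in cultured Th2, 0, 1033 and 0 CPM in OVA-lung Th2 and 22.3, 199, 420 and 654 CPM in CD4 T cells. The zeros in OVA-lung Th2 libraries 1 and 3 allow up to 19.7 and 35.3 CPM. Lung ILC2 had the highest mean (1753 ± 1231 CPM) and cultured Th2 the lowest (161 ± 255 CPM), and within each of the 4 sets lung ILC2 was above CD4 T cells.

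**Figure D2:**
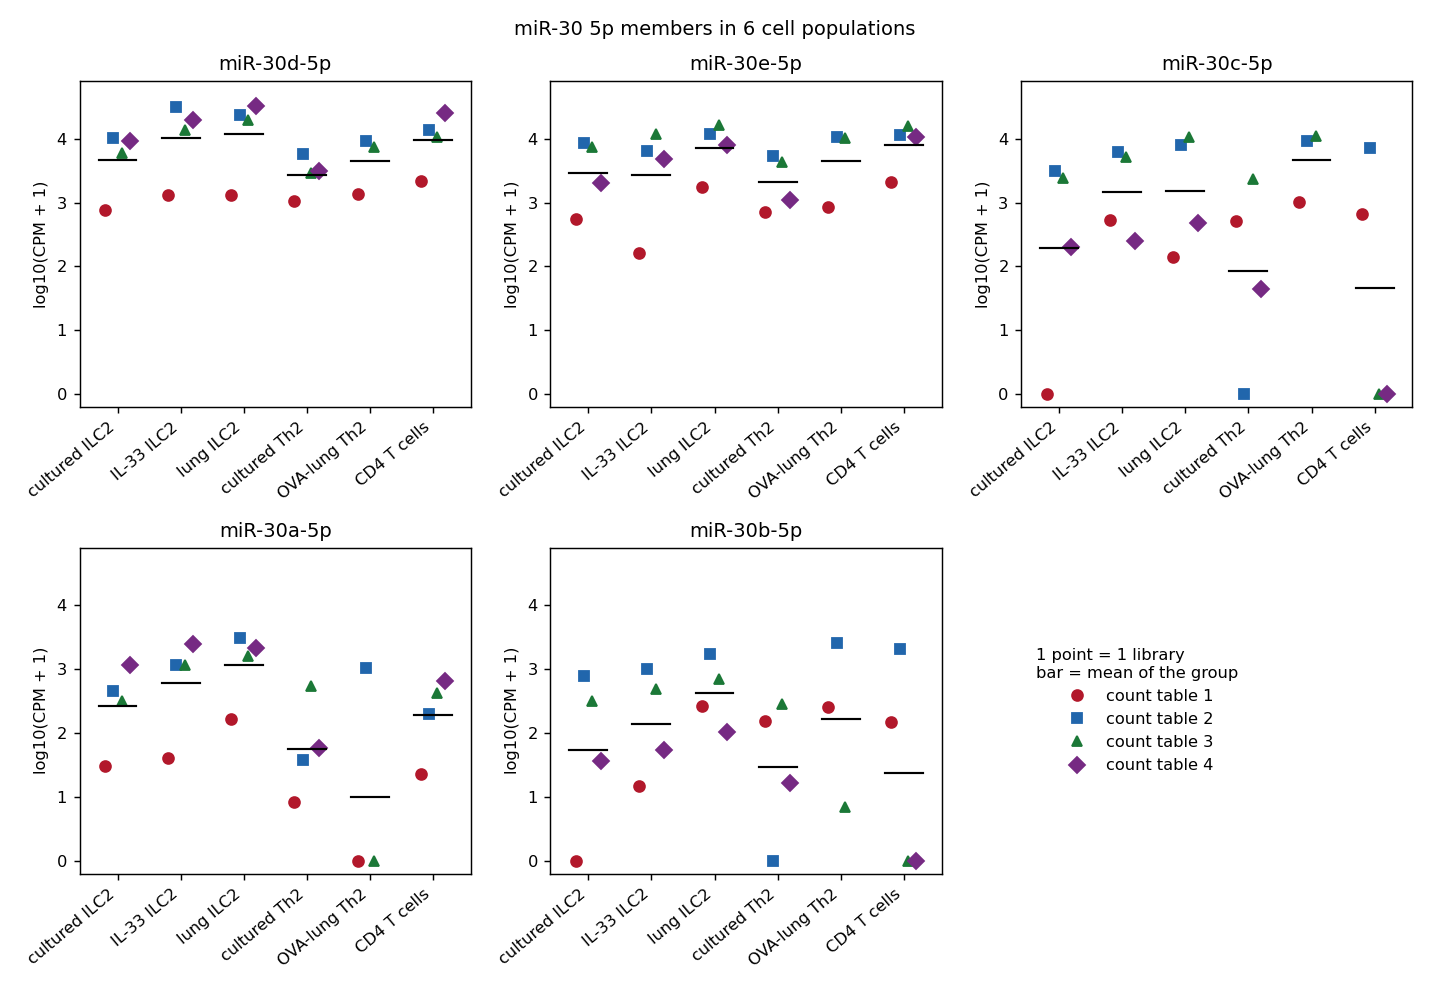
Levels of the 5 miR-30 5p strands in each library of the 6 populations, on a log10(CPM + 1) scale, with points for libraries marked by count table and bars for the group mean on that scale. miR-30d-5p and miR-30e-5p are detected in every library, and the set 1 libraries are the lowest or near the lowest points for these strands.

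The 10 members together held 1.505% ± 0.885 of the counts in cultured ILC2, 3.10% ± 1.69 in IL-33 ILC2 and 3.96% ± 2.04 in lung ILC2 (SD, n = 4 each). They held 0.83% ± 0.40 in cultured Th2 (n = 4), 2.27% ± 1.61 in OVA-lung Th2 (n = 3) and 3.15% ± 1.81 in CD4 T cells (n = 4). Within each of the 4 sets the share was lower in cultured ILC2 than in lung ILC2 and lower in cultured Th2 than in CD4 T cells, although the groups overlap across tables. With miR-21a-5p taken out of the total, the means were 2.64% in cultured ILC2 against 4.22% in lung ILC2, and 2.05% in cultured Th2 against 3.35% in CD4 T cells, and both differences kept their direction in 4 of 4 sets. IL-33 ILC2 were below lung ILC2 in 4 of 4 sets by all counts (3.10% against 3.96%), but in 2 of 4 without miR-21a-5p (4.24% against 4.22%). In bulk samples like these, fewer cells of a type and less RNA per cell cannot be told apart.

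The make-up of the 5p strands differed between libraries. miR-30c-5p made up 29.6%, 28.0% and 38.4% of the 5p counts in OVA-lung Th2, against 0% to 26.0% in the 20 libraries of the other 5 populations and 0.922% to 26.0% in the 16 of these that were not at 0. In each of the 3 sets that hold an OVA-lung Th2 library, that library had the highest share. The log2 ratio of miR-30e-5p to miR-30c-5p, with 0.5 added to each count, averaged -0.05 ± 0.24 in OVA-lung Th2 (SD, n = 3) and 7.80 ± 7.67 in CD4 T cells (SD, n = 4), of which 2 libraries are at 0 for miR-30c-5p. The groups do not overlap, and the exact permutation test gave p = 0.0571, the smallest that 3 against 4 libraries allow (adjusted p = 0.738 over 28 ratio tests). With the libraries at 0 left out, the difference was -1.23, against 2 CD4 T cell libraries.

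The ratio of miR-30a-5p to miR-30d-5p, neither of which was at 0 in those 4 libraries, was added after the levels were seen. On the log2 scale it was -2.95, -2.89, -3.60 and -3.94 in lung ILC2 and -6.56, -6.09, -4.67 and -5.24 in CD4 T cells. Lung ILC2 were higher in 4 of 4 sets, and the groups do not overlap. The means were -3.34 ± 0.51 and -5.64 ± 0.85 (SD, n = 4 each), a difference of 2.30, with p = 0.0286 in the exact two-sided permutation test over all libraries, the smallest that 4 against 4 libraries allow. With labels exchanged only within the 4 sets, since libraries of a set deviate together, the exact permutation p was 0.125, which is the smallest that 4 pairs allow. Over the 28 ratio tests the adjusted p was 0.738, so the difference did not pass the correction. Leaving out each library in turn gave differences of 1.99 to 2.62. With the libraries at 0 for miR-30c-5p left out, which leaves 2 CD4 T cell libraries, it was 2.98 (exact permutation p = 0.133). In IL-33 ILC2 the ratio averaged -4.09 ± 0.95, in cultured ILC2 -4.10 ± 0.78, in cultured Th2 -5.65 ± 2.28 and in OVA-lung Th2 -7.38 ± 3.75, the last with 2 libraries at 0 for miR-30a-5p. No other ratio test of the 28 had an exact permutation p below 0.05. With labels exchanged within sets none can, since the smallest exact permutation p is 0.125 with 4 sets and 0.25 with 3.

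Beside this ratio, marker lists of lung tissue took these shares of the counts. The endothelial list of 2 strands, miR-126a-3p and miR-126a-5p, held 0.0256% to 2.16% of the counts in lung ILC2, with 0 of the 2 at 0 in any library, against 0% to 0.0317% in CD4 T cells. It held 0.0432% to 0.407% in IL-33 ILC2, 0.00379% to 0.05002% in cultured ILC2, 0.000452% to 0.0337% in cultured Th2 and 0.00983% to 0.108% in OVA-lung Th2. The mesenchymal list of 6, led by miR-143-3p, held 0.435% to 1.10% in lung ILC2, with 1 to 5 of the 6 at 0, against 0.000924% to 0.0122% in CD4 T cells, with 3 or 4 of the 6 at 0. In IL-33 ILC2 it held 0.0266% to 0.178%, in cultured ILC2 0.00944% to 0.122%, in cultured Th2 0.000232% to 0.0182% and in OVA-lung Th2 0.00393% to 0.490%. The epithelial list of 10 held 0.0801% to 0.256% in lung ILC2 and 0.0521% to 0.149% in CD4 T cells, which overlap. OVA-lung Th2, with the lowest mean ratio, had an endothelial median of 0.104%, against 0.00201% for CD4 T cells. The ratios of its libraries 1 to 3 were -8.68, -3.16 and -10.30, with 0 counts of miR-30a-5p in libraries 1 and 3. In the same order the endothelial shares were 0.00983%, 0.108% and 0.104%, and the mesenchymal shares 0.00393%, 0.490% and 0.0495%. The part of such RNA in the level of miR-30a-5p was not tested.

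**Figure D3:**
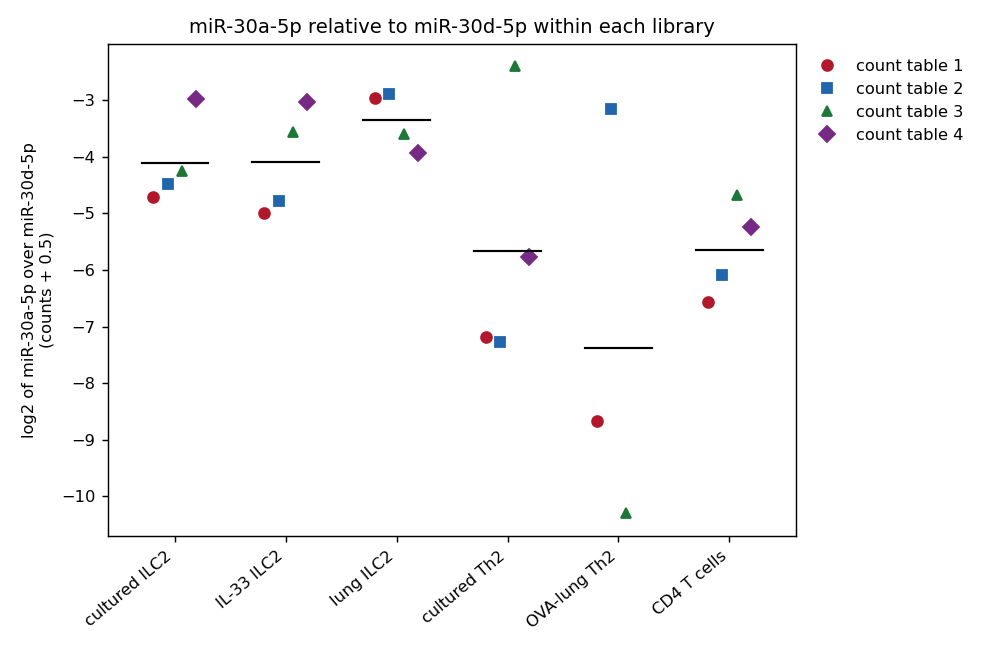
The log2 ratio of miR-30a-5p to miR-30d-5p in each library, by population and marked by count table, with the group means. The 4 lung ILC2 libraries lie between -3.94 and -2.89, all above the 4 CD4 T cell libraries at -6.56 to -4.67.

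For each comparison, counts of all 6 populations were fitted together in edgeR with TMM scaling, and a call is an adjusted p below 0.05 in the quasi-likelihood F-test over the 384 microRNAs. The fit without a replicate block is given first, and the fit with the count table as a block second, since libraries of a table deviate together. No member was called in any of the 9 comparisons with either fit. In the 5 comparisons with 0 calls without the block, 21 to 66 of the 384 had an unadjusted p below 0.05, while DESeq2 called 1 to 21 and limma 0 to 7. Comparisons with CD4 T cells share those libraries, as do those with lung ILC2, so they are not independent of each other. A p that misses the threshold does not show that the levels were equal.

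In lung ILC2 against CD4 T cells, miR-30a-5p had the highest log2 difference of the 5p strands and miR-30e-3p the smallest p. Without the block, 6 of 384 microRNAs were called (1.56%) and 0 of 10 members, with 0 members at an unadjusted p below 0.05. With the block, 48 were called (12.5%) and 0 members, with 2 members at an unadjusted p below 0.05, and DESeq2 and limma called 0 members. miR-30a-5p differed by 1.33 ± 1.54 (log2, SE, adjusted p = 0.650), and by 1.76 ± 1.09 with the block (adjusted p = 0.265). It was above the median of all tested microRNAs, which TMM put at -0.88. miR-30e-3p differed by -2.002 ± 1.211 (adjusted p = 0.354), and by -1.67 ± 0.68 with the block (adjusted p = 0.0949). CD4 T cells library 4, at 15563 CPM, was far above the other 3 CD4 T cell libraries of miR-30e-3p, at 2866, 1980 and 981 CPM. Without that library the log2 difference was -0.32 without the block, and with the 4 libraries at 0 left out it was 0.65. The median over the 10 members was -0.58.

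In IL-33 ILC2 against lung ILC2, miR-30e-3p was higher in CPM in 4 of 4 sets, and miR-30b-5p and miR-30e-5p were lower in 4 of 4. With TMM or size factors, miR-30e-3p was higher in 3 of 4, miR-30b-5p and miR-30e-5p were lower in 2 of 4, and the fitted log2 difference of miR-30e-5p was 0.40. No microRNA was called without the block (0%), and 2 were with it (0.521%), miR-21a-5p and miR-146a-5p, both higher. Of the members 0 were called, and 0 had an unadjusted p below 0.05 in either fit, in DESeq2 or in limma. The member with the smallest p, miR-30e-3p, had 4517, 1316, 967 and 6912 CPM in IL-33 ILC2, against 3540, 1216, 327 and 6686 CPM in lung ILC2. The groups overlap. Its log2 difference was 1.32 ± 1.19 (adjusted p = 1), and 1.33 with the block (adjusted p = 0.591). Without IL-33 ILC2 library 4 it was -0.22, with no block. The median over members was 0.35, against 0.27 over all tested.

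In cultured ILC2 against lung ILC2, the 5 members of the 5p strand were each lower in CPM in 4 of 4 sets, with overlapping groups. These directions depend on the scaling: with TMM, miR-30d-5p was lower in 2 of 4 sets and the other 4 in 3 of 4, and with size factors miR-30a-5p and miR-30c-5p were lower in 3 of 4. The test called 1 microRNA without the block (0.26%) and 17 with it (4.43%), and 0 members in each, with 0 at an unadjusted p below 0.05. DESeq2 and limma also called 0 members. The smallest p was that of miR-30a-3p, at -1.29 ± 1.79 (adjusted p = 0.828), which was -3.53 without cultured ILC2 library 4 and -0.56 without cultured ILC2 library 2. The median over members was -0.36, against 0.60 over all tested.

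In OVA-lung Th2 against CD4 T cells, miR-30d-5p and miR-30e-5p were lower in CPM in 3 of 3 sets. miR-30b-5p and miR-30c-5p were higher in 3 of 3, of which set 3 has a CD4 T cell library at 0. For miR-30b-5p that set holds 0.5 counts in OVA-lung Th2 (5.89 CPM, where 3 counts are 35.3 CPM) against 0. With TMM or size factors, miR-30b-5p and miR-30c-5p were higher in 2 of 3 sets, one of them set 3, and with size factors miR-30d-5p was lower in 2 of 3. The test called 0 microRNAs without the block (0%) and 22 with it (5.73%). It called 0 members in both, with 1 and 0 at an unadjusted p below 0.05. DESeq2 and limma called 0 members, with 1 and 2 at an unadjusted p below 0.05. miR-30e-3p had 485, 886 and 1260 CPM in OVA-lung Th2, against 2866, 1980, 981 and 15563 CPM in CD4 T cells. Its log2 difference was -3.14 ± 1.42 (adjusted p = 0.219), and -1.08 with the block (adjusted p = 0.367). With 1 library left out it ran from -4.00 to -2.31 without the block. With the block it ran from -2.26 without OVA-lung Th2 library 3 to -0.38 without OVA-lung Th2 library 1. miR-30c-2-3p was at 0 in all 3 OVA-lung Th2 libraries and at 3.08, 5.81, 0 and 11.3 CPM in CD4 T cells.

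In cultured Th2 against CD4 T cells, all 10 members had a log2 difference below 0, with a median of -1.13, against 0.01 over all tested. With the block 8 of 10 were below 0. Without the block, 4 microRNAs were called (1.04%) and 0 members, and with it 50 (13%) and 0 members, with 0 and 1 at an unadjusted p below 0.05. DESeq2 and limma called 0 members. The abundant strands miR-30d-5p and miR-30e-5p were lower in 4 of 4 sets with each of the 3 scalings, which were TMM, the size factors of DESeq2 and library totals. miR-30d-5p differed by -1.09 ± 1.01 (adjusted p = 0.616), and by -0.91 ± 0.50 with the block (adjusted p = 0.227). Without the block it was -2.05 without cultured Th2 library 4 and -0.44 without CD4 T cells library 4. miR-30e-5p differed by -1.20 ± 1.04 (adjusted p = 0.582), and by -1.15 ± 0.57 with the block (adjusted p = 0.187).

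With the block and library totals in place of TMM, 35 microRNAs were called (9.11%), of which 24 were lower (6.25%), and these 2 members were among the lower ones. miR-30d-5p then differed by -1.67 ± 0.51 (adjusted p = 0.0275) and miR-30e-5p by -1.89 ± 0.58 (adjusted p = 0.0263). Set against the median of all tested microRNAs, miR-30d-5p was at -1.27 with TMM, -1.27 with size factors and -1.37 with library totals. In the same order miR-30e-5p was at -1.51, -1.54 and -1.59, all of these with the block. A change of scaling moves the log2 differences of all microRNAs nearly alike, and taking off the median removes that shift. Likeness of these values between scalings was therefore nearly fixed in advance and is no sign that the calls are stable. With the 4 libraries at 0 left out, 2 CD4 T cell libraries remained, and the log2 differences with the block were -0.20 for miR-30d-5p and -0.65 for miR-30e-5p. Without the block they were 1.22 and 0.39.

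In IL-33 ILC2 against OVA-lung Th2, miR-30c-5p was lower in 3 of 3 sets with each of the 3 scalings. miR-30a-5p was higher in CPM in 3 of 3 sets and with TMM or size factors in 2 of 3, the 2 in which the OVA-lung Th2 library is at 0. The test called 0 microRNAs without the block (0%) and 13 with it (3.39%), and 0 members, with 0 and 1 at an unadjusted p below 0.05. DESeq2 and limma called 0 members, with 3 and 2 at an unadjusted p below 0.05. miR-30a-3p had 545, 167, 76.4 and 934 CPM in IL-33 ILC2, against 0, 132 and 0 CPM in OVA-lung Th2. Its log2 difference was 4.37 ± 2.30 (adjusted p = 0.340), and 4.43 with the block (adjusted p = 0.160). Since 2 of the 3 OVA-lung Th2 libraries are at 0, the fitted value is no bound, and without library 2 of that group it was 12.67.

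In cultured ILC2 against cultured Th2, the direction of miR-30e-3p depended on the scaling. It was higher in CPM in 4 of 4 sets, but in 1 of 4 with TMM and 2 of 4 with size factors, and its fitted log2 difference was -0.66, or -0.23 with the block. The test called 1 microRNA without the block (0.26%) and 48 with it (12.5%), and 0 members, with 0 at an unadjusted p below 0.05 in each. DESeq2 and limma called 0 members. miR-30a-3p had the smallest p, with 60.7, 66.1, 0 and 356 CPM in cultured ILC2 and 8.60, 11.1, 0 and 11.05 CPM in cultured Th2. Its log2 difference was 3.12 ± 1.92 (adjusted p = 0.497), and 0.70 without cultured ILC2 library 4. The median over members was 0.22, against -0.47 over all tested.

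The difference between the lineages in the change on activation was tested directly. The T cell step in vivo, OVA-lung Th2 against CD4 T cells, also differs in genotype, tissue and sort. Activation cannot be told apart from these in that contrast. In vivo, IL-33 ILC2 against lung ILC2 less OVA-lung Th2 against CD4 T cells, 0 microRNAs were called without the block (0%) and 14 with it (3.65%), and 0 members, with 1 at an unadjusted p below 0.05 in each. miR-30e-3p had a difference of 4.47 ± 1.84 (adjusted p = 0.239), and 2.41 ± 1.01 with the block (adjusted p = 0.178). Without OVA-lung Th2 library 1 it was 1.24 with the block. In culture, 0 microRNAs were called without the block (0%) and 3 with it (0.781%), and 0 members, with 0 at an unadjusted p below 0.05. The smallest p was that of miR-30e-5p, at 1.28 ± 1.46 (adjusted p = 0.962), and -0.31 with the 4 libraries at 0 left out. DESeq2 and limma called 0 members in both.

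**Figure D4:**
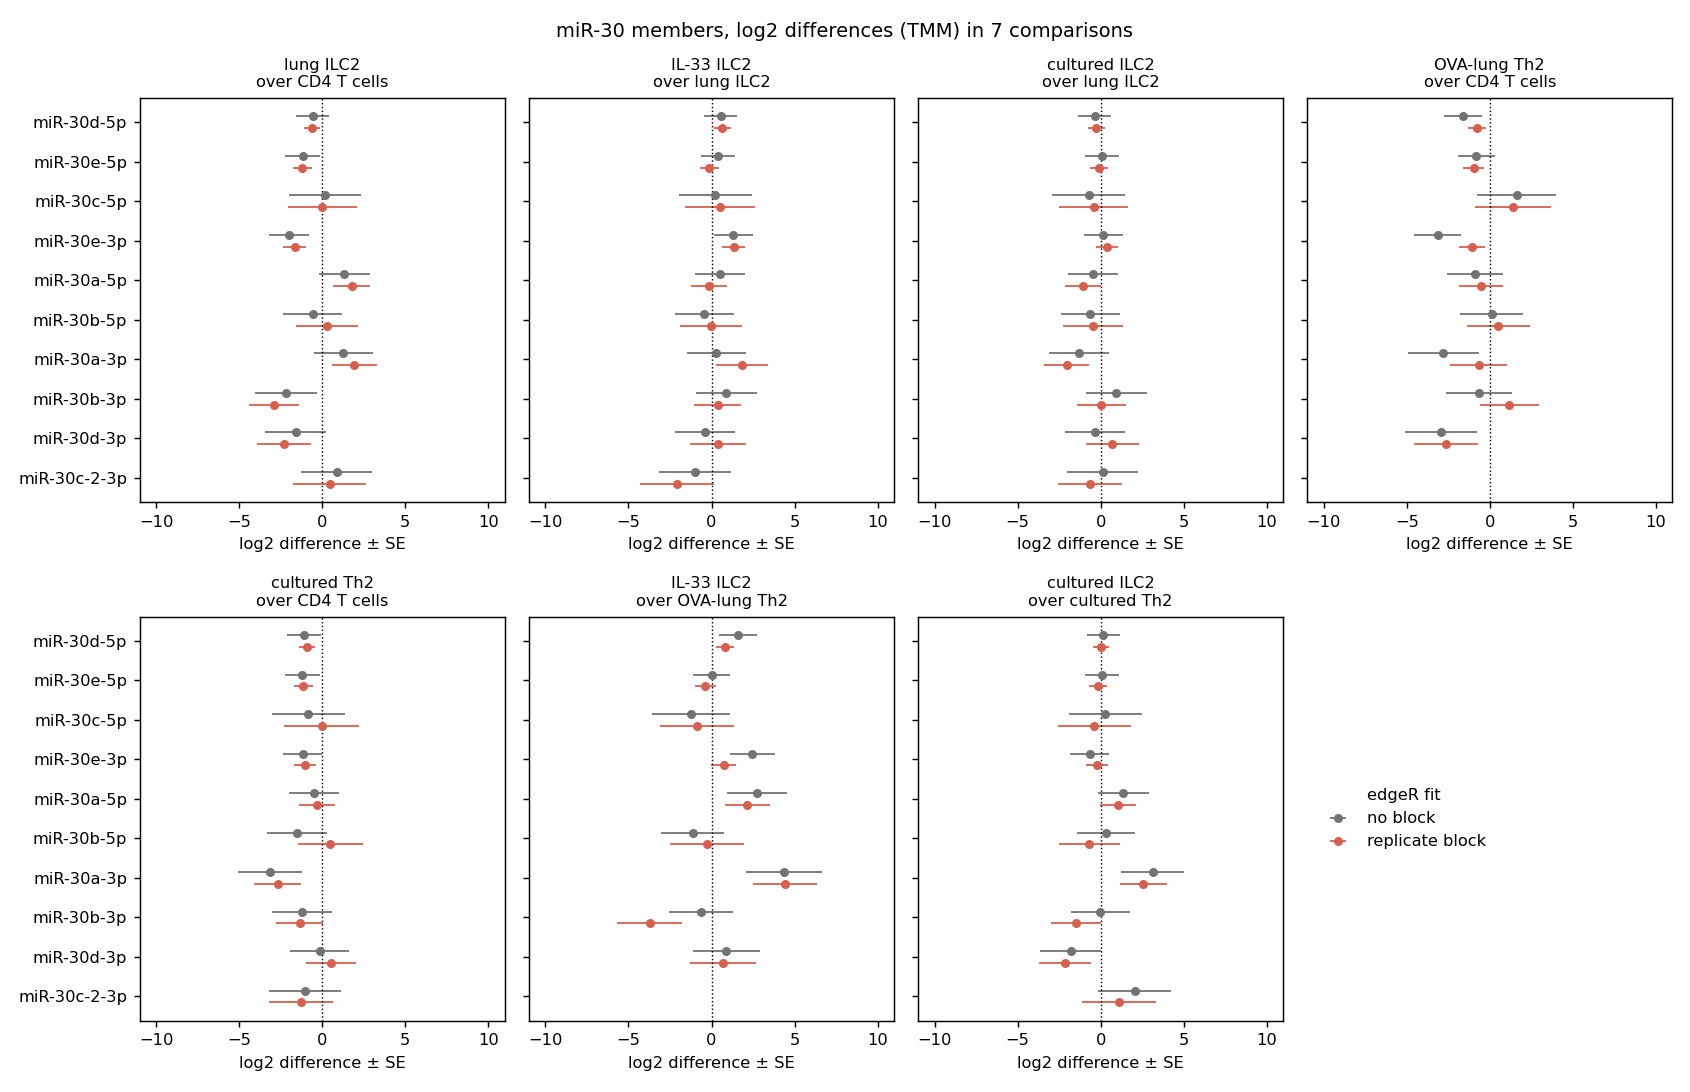
The log2 difference of each member in the 7 comparisons of populations, from the edgeR fit without and with the replicate block, with bars of 1 SE. No member passed the test in these fits. In the panel of cultured Th2 over CD4 T cells all 10 points without the block are below 0. The miR-30c-2-3p points are left out of the panels with OVA-lung Th2, where it was at 0 in every library.

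Lists known to go with lymphocyte state were set beside the family. They were chosen with earlier results of these data known, so their calls are no independent check. Of 13 microRNAs that resting lymphocytes are known to hold at high levels, lung ILC2 had 7 lower against CD4 T cells with the block, where 8.85% of all tested were lower, and 3 without it (0.781%). Among them were miR-150-5p at -5.67 ± 0.64 (adjusted p = 1.65e-08) and miR-181a-5p at -3.97 ± 0.67 (adjusted p = 3.79e-05) with the block. These strands are also the T cell markers used above. Lung ILC2 and CD4 T cells both came from untreated mice and differ in lineage and tissue. Their comparison is therefore not one of resting against activated cells. Of the same 13, cultured Th2 had 4 lower against CD4 T cells with the block (4.43% of all tested) and 2 without it (0.521%), with miR-150-5p at -6.11 ± 0.66 (adjusted p = 3.20e-09). Of 16 microRNAs that activated T cells are known to induce, cultured Th2 had 7 higher and 1 lower against CD4 T cells with the block, where 8.59% of all tested were higher, and 2 higher without it (0.521%). miR-21a-5p, which leads them, was at 4.36 ± 0.50 (adjusted p = 1.36e-08). Cultured ILC2 had 4 of the 16 higher against lung ILC2 with the block (3.65%) and 1 without it (0.26%), with miR-21a-5p at 3.78 ± 0.48 (adjusted p = 5.59e-07). IL-33 ILC2 had 2 of the 16 higher against lung ILC2 with the block (0.521%), miR-21a-5p at 2.68 ± 0.47 (adjusted p = 5.05e-04) and miR-146a-5p at 2.26 ± 0.54 (adjusted p = 0.0263), and 0 without it. OVA-lung Th2 had 3 of the 16 higher and 1 of the 13 lower against CD4 T cells with the block (2.86% of all tested each way), with miR-21a-5p at 3.94 ± 0.50 (adjusted p = 5.58e-07). With the 4 libraries at 0 left out and the block kept, the resting list had 2 lower in lung ILC2, 1 in cultured Th2 and 0 in OVA-lung Th2 against CD4 T cells. The activated list then had 5 higher in cultured Th2 and 1 in OVA-lung Th2 against CD4 T cells, and 3 in cultured and 1 in IL-33 against lung ILC2. The family had 0 calls in each of these fits.

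The balance of the 2 arms differed between the count tables. The log2 ratio of miR-30e-5p to miR-30e-3p had a median of -0.85 in set 1, 2.78 in set 2, 3.67 in set 3 and -0.54 in set 4. It was below 0 in 5 of 6 libraries of set 1 and 4 of 5 of set 4, and in 0 of 6 in sets 2 and 3. The ratio of miR-30a-5p to miR-30a-3p had medians of -1.77, 2.76, 8.33 and 1.39 in sets 1 to 4, where OVA-lung Th2 libraries 1 and 3 have 0 counts of both strands. miR-30d-5p was above miR-30d-3p in all 23 libraries, by 4.88 to 13.64 on the log2 scale. The 5p strands made up 26.9% to 82.4% of the family's counts in set 1, 90.8% to 96.8% in set 2, 94.5% to 99.3% in set 3 and 68.9% to 84.5% in set 4. The shares of the 2 arms are therefore not comparable across tables, and what differed between the tables is not given in the sources used here.

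**Figure D5:**
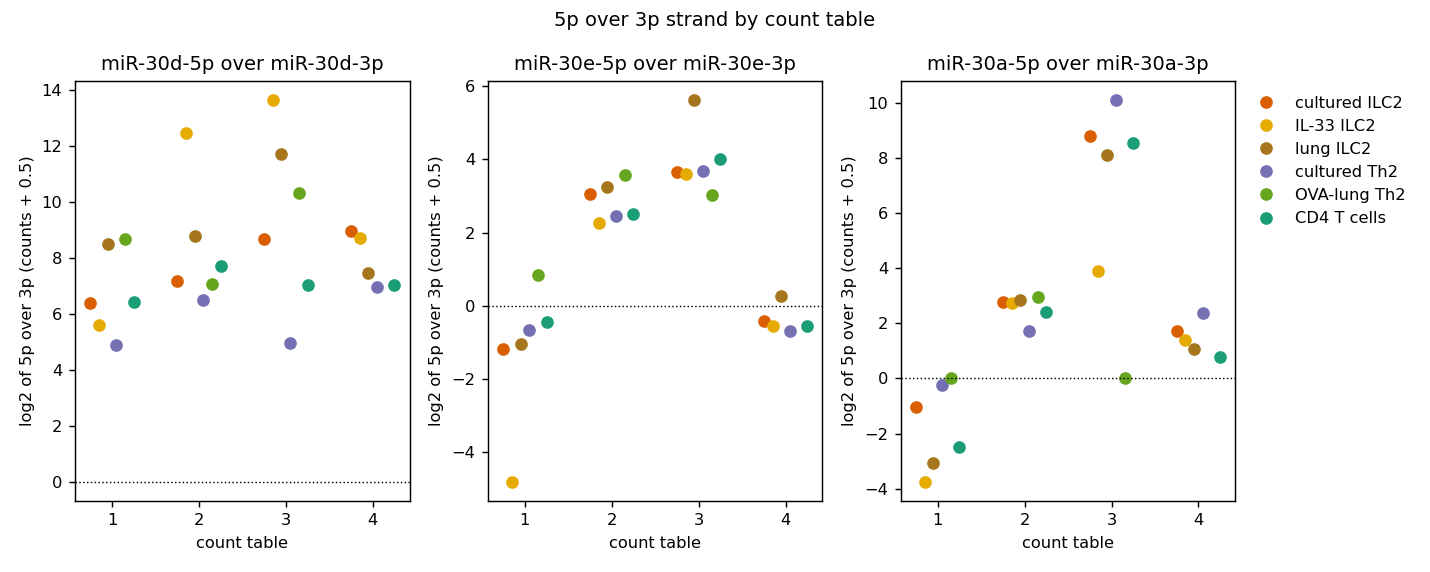
The log2 ratio of the 5p strand to the 3p strand of members in each library, by count table. For miR-30e the set 1 and set 4 libraries lie mostly below 0, with medians of -0.85 and -0.54, and all libraries of sets 2 and 3 lie above 0.

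Which microRNAs outside the family followed each 5p strand was described by Spearman's rho over the 23 libraries. TMM scaling was used, with each table's mean removed. The points share libraries and scaling, so these are descriptions. miR-30a-5p was most like miR-10a-5p (0.90), miR-126a-5p (0.74), an endothelial marker, and let-7e-5p (0.69). miR-30d-5p was most like miR-378a-3p (0.87), miR-28a-3p (0.86) and miR-140-3p (0.83). miR-30e-5p was most like miR-101a-3p (0.78), miR-141-3p (0.75) and miR-142a-5p (0.71). Outside the family, miR-30b-5p was most like miR-142a-3p (0.62), which is at 0 in the same libraries, and miR-30c-5p most like miR-181b-5p (0.55). Both values are below the rho of miR-30b-5p with miR-30c-5p (0.67). The leading names of miR-30a-5p, miR-30d-5p and miR-30e-5p were also first under size factors and library totals.

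Within the family, miR-30b-5p and miR-30c-5p went together most closely with TMM (rho 0.67), and then miR-30d-5p and miR-30e-5p (0.57). The first value includes the 4 libraries where both strands are at 0. With library totals the order was reversed, at 0.65 for the first pair and 0.71 for the second. miR-30a-5p went with none of the others, at -0.18 to 0.20, although with library totals these values were 0.17 to 0.49.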

How the data were processed

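Small RNA was sequenced from sorted or cultured mouse cells. The authors deposited expected counts for each microRNA, which need not be whole, in 4 tables of 871, 1141, 482 and 725 entries. The authors also deposited a table of RPM (reads scaled to a column total of 1000000) with 1099 entries, used here for limma alone. The submitters' processing notes name mm10 and DESeq2 without a version. The aligner, and how reads shared by near-identical microRNAs were split, is not given in the sources used here. Where a table lacks an entry, its count was taken as 0. Scripts read 46 columns of values and left aside 6, which are the authors' group averages.

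Expected counts were rounded and fitted in edgeR 4.0.16 (R 4.3.3) over all 6 populations, with TMM, filterByExpr by group (384 of 1256 entries) and robust quasi-likelihood F-tests, adjusted by Benjamini-Hochberg within each comparison over all 384. The code was tested on simulated data. Alternatives were other scalings, no filter, DESeq2 1.42.0, limma 3.58.1 on log2(RPM + 1), a replicate block, each library left out, and, chosen after seeing the data, the 4 libraries at 0 left out, the ratio of miR-30a-5p to miR-30d-5p, and ratio labels exchanged within sets. Ratios within a library used counts + 0.5 and exact two-sided permutation tests. Since the total sets what 1 count is worth, 3 counts are between 0.106 and 35.3 CPM, and such limits cover counting error only.

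Per the labels the replicate number is the count table. It was taken as a shared batch, which pairs libraries. The check used 204 microRNAs, those with 10 or more counts in 12 or more libraries. Same-numbered libraries deviated from their group means together, with a correlation above 0.1 in 51 of 55 pairs (median 0.38), against a median of -0.18 for differing numbers. In 22 of 23 libraries the best match had the same number. edgeR's biological coefficient of variation was 1.13 with the block, against 1.54 without it.

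Named members are all 10, with the member of smallest p in each comparison. Up to 2 of each list of resting or activated lymphocytes are named. For each 5p strand, up to 3 of the microRNAs outside the family most like it are named too. The members and lists were chosen with earlier results of these data known. Sequences are from RefSeq on GRCm38.p6, matched by name for 1009 of 1256 entries, and gene features from GENCODE on the same build. The family entry miR-30c-1-3p (2297 counts, 0.353% of the family) was not among the members.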

Additional observations from a re-analysis of the deposited data

Results flagged for a closer look

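Among 75 groups of 4 libraries looked at for a library far from the rest, 9 had one. A rate of about 1 in 20 by chance does not carry over to them. The groups share libraries, and most flags are the highest of a set of uneven CPM. miR-30a-5p in cultured Th2 was high in library 3, at 542 CPM. In CD4 T cells, miR-30b-5p and miR-30c-5p were high in library 2, at 2087 and 7102 CPM, where libraries 3 and 4 are at 0. miR-30b-3p was high in library 1 of IL-33 ILC2 (424 CPM) and in library 1 of CD4 T cells (879 CPM). miR-30e-3p was high in CD4 T cells library 4, at 15563 CPM. miR-30d-3p was high in cultured ILC2 library 2, at 69.4 CPM. miR-30c-2-3p was above 0 in 1 IL-33 ILC2 library, library 4, at 16.2 CPM. The family's share of counts was low in lung ILC2 library 1, at 0.901%, and all 6 libraries of set 1 were at or below that share.

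By its CPM, miR-30b-5p moved opposite ways in the lineages on activation in vivo. It was lower in IL-33 ILC2 than in lung ILC2 in 4 of 4 sets. It was higher in OVA-lung Th2 than in CD4 T cells in 3 of 3, of which 1 has a CD4 T cell library at 0. In that set miR-30b-5p had 0.5 counts in the OVA-lung Th2 library, where 3 counts are 35.3 CPM. With TMM or size factors it was lower in 2 of 4 and higher in 2 of 3, so the opposite directions were seen with library totals alone. The edgeR test of the difference itself gave -0.54 ± 2.60 on the log2 scale (adjusted p = 0.980), so it did not pass. OVA-lung Th2 and CD4 T cells also differ in genotype, tissue and sort, which cannot be told apart from activation here.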

How the results depend on the processing

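Of 260 recomputed counts of members called, 257 stayed at 0. The exceptions were 2 members in cultured Th2 against CD4 T cells (replicate block with library totals) and 1 member, miR-30a-5p, in OVA-lung Th2 against CD4 T cells and 1, the same, in IL-33 ILC2 against OVA-lung Th2 (without OVA-lung Th2 library 2, with the block), where the OVA-lung Th2 libraries left are both at 0. The block changed no other call of a member, but moved the count over all microRNAs by over 1.5 times in all 9 comparisons, as given in the report. Counts over all microRNAs without the block also moved with the scaling, the filter, the tool and the 4 libraries, from 0 to 27 (6 as reported) in lung ILC2, 0 to 21 (0) in OVA-lung Th2 and 2 to 26 (4) in cultured Th2, each against CD4 T cells. They ran from 0 to 1 (0) in IL-33 and 0 to 6 (1) in cultured against lung ILC2, 0 to 11 (0) in IL-33 ILC2 against OVA-lung Th2, 0 to 19 (1) in the cultured pair, and 0 to 9 (0) in vivo and 0 to 4 (0) in culture for the lineages. DESeq2 gave the highest of these. With the block they ran from 18 to 48, 11 to 25 and 10 to 50 against CD4 T cells, in the same order. Scaling moved the split of calls: with the block, lung ILC2 against CD4 T cells had 14 higher and 34 lower with TMM and 16 and 10 with library totals, and cultured Th2 against CD4 T cells had 33 and 17 with TMM and 11 and 24 with library totals. The median of all tested, without the block, was -0.88 with TMM, -0.39 with size factors and 0.00 with library totals in the first of these, and 0.60, 0.25 and -0.24 in cultured against lung ILC2.

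Of 2600 recomputed log2 differences, over the 10 members, 9 comparisons and all alternatives, 485 changed sign, 19 of 90 with the block alone and 25 of 90 with the 4 libraries at 0 left out. For the member of smallest p in each comparison it was 3 of 260. Those members were picked by p in these same data, which favours differences large against their SE. Their lower number is therefore no sign of stability. With the 4 libraries at 0 left out, miR-30e-3p in lung ILC2 against CD4 T cells was 0.65 and the culture difference between lineages of miR-30e-5p was -0.31. With 1 library left out at a time, miR-30e-3p in IL-33 against lung ILC2 ran from -0.22 to 2.16. Of 300 recomputed ratios 32 changed sign, none of which had passed the adjusted test. With the replicate block, as labels exchanged within sets (chosen after seeing the data), miR-30e-5p over miR-30c-5p was -0.12 for IL-33 ILC2 over OVA-lung Th2. No ratio then had an exact permutation p below 0.125. With an added count of 5, miR-30a-5p over miR-30d-5p was 0.41 in OVA-lung Th2 against CD4 T cells.

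With the 4 libraries at 0 left out, miR-30d-5p over miR-30b-5p was 1.504, 1.24 and 1.31 in lung ILC2, OVA-lung Th2 and cultured Th2, each against CD4 T cells, and 0.74 for cultured ILC2 against cultured Th2. miR-30e-5p over miR-30c-5p was 1.03 and 0.82 for lung ILC2 and cultured Th2 against CD4 T cells, -0.051 for cultured against lung ILC2 and 0.16 for the cultured pair. miR-30a-5p over miR-30c-5p was 4.60 in lung ILC2 and 2.40 in cultured Th2, each against CD4 T cells, with -0.63 for cultured against lung ILC2. miR-30a-5p over miR-30d-5p was 1.21 in cultured Th2 against CD4 T cells.

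With 1 library left out, the ratios that changed sign had these ranges. For cultured against lung ILC2, miR-30e-5p over miR-30c-5p ran from -0.051 to 2.78 and miR-30a-5p over miR-30c-5p from -0.63 to 2.27. miR-30a-5p over miR-30c-5p ran from -5.32 to 0.077 in lung ILC2 against CD4 T cells and from -2.36 to 0.014 in IL-33 against lung ILC2. miR-30e-5p over miR-30c-5p ran from -0.12 to 1.86 in IL-33 ILC2 against OVA-lung Th2. For the cultured pair, miR-30d-5p over miR-30b-5p ran from -1.91 to 2.03, miR-30e-5p over miR-30c-5p from -2.97 to 2.11 and miR-30a-5p over miR-30c-5p from -1.22 to 3.27. For cultured Th2 against CD4 T cells, miR-30d-5p over miR-30b-5p ran from -4.43 to 0.50, miR-30a-5p over miR-30c-5p from -5.02 to 0.37 and miR-30a-5p over miR-30d-5p from -1.10 to 0.52. With miR-21a-5p out of the total the family's share was 2.64% in cultured ILC2, 2.05% in cultured Th2 and 4.05% in OVA-lung Th2. The cause of these changes was not tested. Depth limits the low members most, since 3 counts are up to 35.3 CPM in OVA-lung Th2 library 3.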
